A study of Rattus norvegicus with 6 samples.

Results

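A set of 10 genes of fatty acid uptake and neutral lipid storage was examined in cultures labelled as neonatal rat cardiomyocytes. They were chosen by name: Cd36, Lpl, Fabp3, Fabp4, Fabp5, Plin2, Plin3, Pnpla2, Dgat1 and Dgat2. Of these 10 genes, 7 had a row among the 18077 rows of the count tables, each with a single row of that name. Cd36, Fabp5 and Plin3 were not analysed here. The cells came from hearts of rat pups aged 1 to 3 days and were pre-plated and kept with BrdU against fibroblast overgrowth. All cultures, controls included, were exposed for 24 h to palmitic acid at 500 µM, carried an adenovirus and were harvested after 48 h. PolyA RNA was sequenced from 3 libraries labelled Ad-RNF128, for overexpression of the ubiquitin ligase RNF128, and from 3 labelled Ad-GFP, the control vector with green fluorescent protein. The design asks which genes change with RNF128. No separate animals, batches or days are named, so p-values measure only the spread between these libraries, which may be technical.

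Long-chain fatty acids enter heart cells from albumin or from lipoprotein triglyceride, which lipoprotein lipase cleaves, and cross the membrane with the help of carriers such as CD36. Inside the cell, small fatty acid binding proteins carry them. What is not oxidised is esterified to triglyceride by the DGAT enzymes and stored in lipid droplets that perilipins coat. ATGL, the product of Pnpla2, starts the release of fatty acids from the droplet. Palmitate is widely used to load cultured heart cells with lipid.

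The libraries held 17099149, 21708973 and 19253718 counts in Ad-RNF128 replicates 1, 2 and 3, and 16352843, 18053154 and 21332585 counts in Ad-GFP replicates 1, 2 and 3. Rnf128 itself had 1, 3 and 1 counts in the libraries labelled Ad-RNF128 and 0, 2 and 1 counts in Ad-GFP, so the counts on the rat gene do not bear out the label. Rnf157, another RING-type ligase gene, was at 1923, 2553 and 2090 CPM (counts per 1000000 counts of the library) in Ad-RNF128 and at 22.3, 39.6 and 40.4 CPM in Ad-GFP. Every direction given here is for the libraries labelled Ad-RNF128. Ad-GFP replicate 1 stood apart, since its Spearman correlation with any other library was 0.776 to 0.818. Over all genes tested, its level differed from the mean of Ad-GFP replicates 2 and 3 by a median absolute log2 ratio of 1.99. Ribosomal protein genes held 11% of its counts, against 3.09% to 4.77% in the other libraries. Mitochondrial genome genes held 0.951%, against 3.08% to 5.35%. In it 3551 genes had no read, against 1190 to 2288 in the others. What set Ad-GFP replicate 1 apart was not tested. It is shown separately because of these differences, and the tests of the set are given without and with it. Of 12 cardiomyocyte markers, 10 (all but Tnnt2 and Tnnc1) summed to 65.9, 47.6 and 1.40 CPM in Ad-RNF128 replicates 1, 2 and 3, and to 67.2, 59.6 and 47.1 CPM in Ad-GFP replicates 1, 2 and 3. Ad-RNF128 replicate 3 was thus near 0 for these, with the cardiac myosin gene Myh6 at 0.104 CPM and no read of Nppa, the natriuretic peptide gene. The other 2 markers differed from these, with Tnnt2, a troponin gene, at 57.4, 42.3 and 34.0 CPM in Ad-RNF128 and 13.3, 342 and 350.4 CPM in Ad-GFP replicates 1, 2 and 3. Tnnc1, another troponin gene, was at 106, 105 and 88.6 CPM in Ad-RNF128 and 153, 265 and 265 CPM in Ad-GFP replicates 1, 2 and 3. Against Ad-GFP replicates 2 and 3 these were the only cardiomyocyte markers of 11 tested that passed, both lower in Ad-RNF128. By the same test 28% of all genes fell. Outside Ad-RNF128 replicate 3, Myh6 was at 14.3 and 10.8 CPM in Ad-RNF128 and at 16.0, 13.4 and 11.1 CPM in Ad-GFP. The fibroblast collagen gene Col1a1 was at 3659 to 4016 CPM in Ad-RNF128 and at 1100 to 18270 CPM in Ad-GFP. Skeletal muscle markers were present too, with Myod1 at 25.3 to 32.7 CPM in Ad-RNF128 and 50.5 to 63.3 CPM in Ad-GFP. Myog was at 4.88 to 7.43 CPM in Ad-RNF128 and 3.85, 33.0 and 35.4 CPM in Ad-GFP replicates 1, 2 and 3. Against Ad-GFP replicates 2 and 3, 4 of 6 tested skeletal muscle markers fell, as did 28% of all genes. Which cells held the Tnnt2 and Tnnc1 reads was not tested.

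Of the 4 genes of the set that rose against Ad-GFP replicates 2 and 3, Plin2 and Pnpla2 had a window in the RefSeq table used here. The sequences below run from 250 bases before to 50 bases after the start, 5′ to 3′ on the gene's strand, in the build GRCr8, which is not the mRatBN7.2 build of the counts. Capitals mark exact matches, on either strand, to an E-box (CACGTG) or a GC box (GGGCGG). The Plin2 window lies at chr5:106228969-106229268 on the minus strand and the Pnpla2 window at chr1:205982029-205982328 on the plus strand.
Plin2: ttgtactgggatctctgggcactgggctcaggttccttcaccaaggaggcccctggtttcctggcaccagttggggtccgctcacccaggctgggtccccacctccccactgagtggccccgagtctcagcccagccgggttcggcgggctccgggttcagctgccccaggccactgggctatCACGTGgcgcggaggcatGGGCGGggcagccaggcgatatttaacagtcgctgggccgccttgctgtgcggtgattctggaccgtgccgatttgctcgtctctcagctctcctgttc
Pnpla2: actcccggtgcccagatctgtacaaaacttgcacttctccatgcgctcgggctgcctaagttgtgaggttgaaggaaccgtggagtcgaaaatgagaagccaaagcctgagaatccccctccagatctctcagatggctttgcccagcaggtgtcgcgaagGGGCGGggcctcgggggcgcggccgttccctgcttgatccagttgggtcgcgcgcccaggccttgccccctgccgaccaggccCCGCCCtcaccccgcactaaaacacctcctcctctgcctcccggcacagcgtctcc
The Plin2 window held an E-box whose first base lay 67 bases before the start and a GC box at 49 bases before it. The Pnpla2 window held GC boxes beginning 89 and 6 bases before the start. Among 33469 windows of this kind, 6.42% held an E-box and 33.1% a GC box, so neither match sets these genes apart. No exact match was found in them to the DR1 element that PPAR factors bind (AGGTCA repeated directly after 1 free base, in 0.0538% of windows), to the core of the interferon-stimulated response element (GAAA repeated after 2 free bases, in 3.92%) or to a sterol response element (TCACNCCAC, in 1.12%). The window of a second listed Plin2 start held none of these 5 motifs, and it alone of the 3 windows held a CCAAT box (CCAAT, in 37.5% of all windows). None of the motifs overlapped another. Windows were also listed for Cd36, Fabp3 and Plin3 and are not shown.

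Against Ad-GFP replicates 2 and 3, 4 genes of the set rose. Plin2, Pnpla2, Dgat2 and Dgat1 were each higher in all 3 libraries labelled Ad-RNF128 than in both of these controls. The ratios of mean CPM, which uses library totals, were 1.35 to 2.06, and the tests used TMM scaling, under which the changes were smaller. Lpl and Fabp3 did not pass the test, and Fabp4 had too few reads to be tested. With Ad-GFP replicate 1 included, no gene of the set passed. In bulk RNA such as this, fewer cells of a type and less RNA per cell cannot be told apart.

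Of the 6 genes that passed the low-count filter, 4 rose and 0 fell at an edgeR adjusted p under 0.05. The share of all 13173 genes that rose by the same rule was 28.9%, and a further 28% fell, so a large part of the transcriptome differed between these libraries. The CPM ranges of 5 of the 7 genes with a row did not overlap between the groups, with Ad-RNF128 higher, as was so for 48.7% of all genes tested. The median log2 change of the 6 tested genes was 0.44, against 0.01 for all genes. With library totals in place of TMM scaling, the median over all genes was 0.17, and the share of calls that rose was 69% in place of 50.8%. The 4 genes were higher under both scalings.

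**Figure D1:**
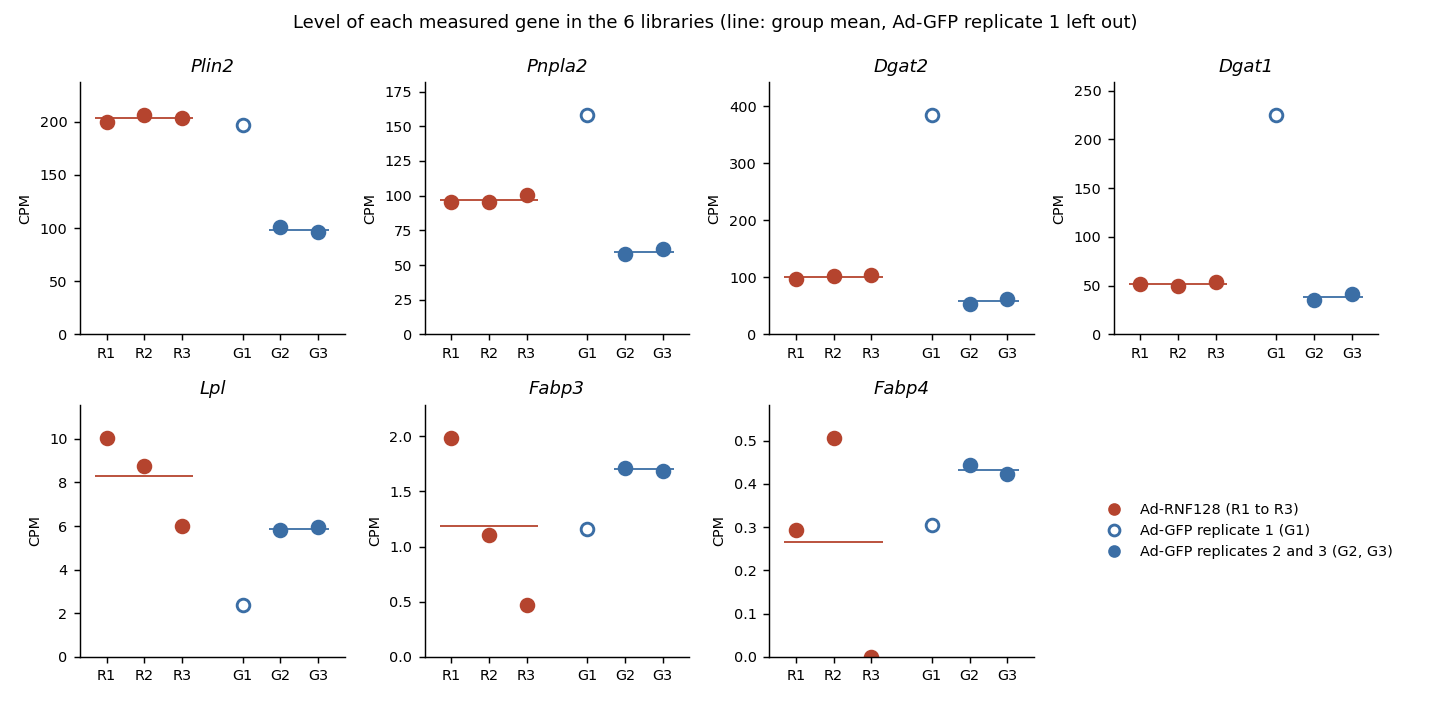
CPM of each gene (vertical axis, from 0) in Ad-RNF128 replicates 1 to 3 (R1 to R3) and Ad-GFP replicates 1 to 3 (G1 to G3), 1 point per library. Lines mark the group means without Ad-GFP replicate 1, which is drawn open. In Pnpla2, Dgat2 and Dgat1 the 3 Ad-RNF128 libraries lie below the open point, while in Plin2 they lie at 200.01 to 206 CPM, just above its 197 CPM.

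Plin2 encodes perilipin 2, which coats lipid droplets in most cells outside fat tissue and shields them from lipases. Its level was 200.01, 206 and 204 CPM in Ad-RNF128 replicates 1, 2 and 3, and 197, 101 and 96.2 CPM in Ad-GFP replicates 1, 2 and 3. Ad-GFP replicates 2 and 3 were thus close to each other and well below Ad-RNF128, while Ad-GFP replicate 1 nearly reached the lowest Ad-RNF128 library. Against replicates 2 and 3, Plin2 rose by a log2 change of 0.89 ± 0.06 (SE; edgeR adjusted p = 2.37e-08). This log2 change is under TMM scaling, and 9.9% of all genes tested had one at least as high. In mean CPM, which uses library totals, the ratio was 2.06. The Ad-RNF128 mean was 203 ± 3.08 CPM (SD, n = 3). With all 6 libraries the CPM ranges, which carry no TMM scaling, still did not overlap, as for 30.4% of all genes with Ad-RNF128 higher. With TMM scaling the log2 change was -0.26 ± 0.70 (edgeR adjusted p = 0.969). With library totals it was 0.63 ± 0.38 (edgeR adjusted p = 0.957).

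Pnpla2 encodes adipose triglyceride lipase (ATGL), which removes the first fatty acid from stored triglyceride and is the main lipase of this step in heart muscle. It was at 95.4, 95.1 and 100.1 CPM in Ad-RNF128, and at 158, 57.9 and 61.3 CPM in Ad-GFP replicates 1, 2 and 3. The Ad-RNF128 libraries lay between Ad-GFP replicate 1 above and replicates 2 and 3 below. Against replicates 2 and 3 the log2 change was 0.55 ± 0.07 (edgeR adjusted p = 1.27e-05). With all 6 libraries it was -0.90 ± 0.80 (edgeR adjusted p = 0.774), and 0.069 ± 0.48 with library totals.

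Transcripts of a coat protein that protects the droplet and of a lipase that empties it were therefore both higher against replicates 2 and 3. Protein, lipase activity and droplets were not measured here. The ratio of the 2 transcripts can be read within each library, where scaling has no part. There were 2.10, 2.17 and 2.03 Plin2 reads for each Pnpla2 read in Ad-RNF128, and 1.25, 1.74 and 1.57 in Ad-GFP replicates 1, 2 and 3. This ratio was higher in all 3 Ad-RNF128 libraries than in all 3 Ad-GFP libraries. It shows an unequal change of the 2 genes and was computed after their values were seen, so it is given without a test.

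Dgat2 and Dgat1 encode unrelated enzymes that add the last fatty acid to make triglyceride. Dgat2 was at 96.4, 102 and 104 CPM in Ad-RNF128, and at 384, 54.0 and 62.0 CPM in Ad-GFP replicates 1, 2 and 3. Its log2 change against replicates 2 and 3 was 0.64 ± 0.08 (edgeR adjusted p = 9.23e-06). Ad-GFP replicate 1 was 3.80 times the Ad-RNF128 mean, so the groups overlapped once it was included. Over all 6 libraries the log2 change was -1.89 ± 1.16 (edgeR adjusted p = 0.681).

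Dgat1 showed a smaller difference, at 52.2, 49.8 and 54.0 CPM in Ad-RNF128 and 225, 35.0 and 41.8 CPM in Ad-GFP replicates 1, 2 and 3. The log2 change against replicates 2 and 3 was 0.28 ± 0.09 (edgeR adjusted p = 0.0153). That call rested on Ad-GFP replicate 2, since without it the log2 change was 0.13 and the edgeR adjusted p = 0.231. Without Ad-GFP replicate 3 it was 0.44 (edgeR adjusted p = 0.0011). Over all 6 libraries it was -2.10 ± 1.13 (edgeR adjusted p = 0.681). Within libraries, there were 1.85, 2.06 and 1.93 Dgat2 reads for each Dgat1 read in Ad-RNF128, and 1.71, 1.54 and 1.48 in Ad-GFP replicates 1, 2 and 3. Here too every Ad-RNF128 library lay above every Ad-GFP library, in a ratio computed after the values were seen.

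**Figure D2:**
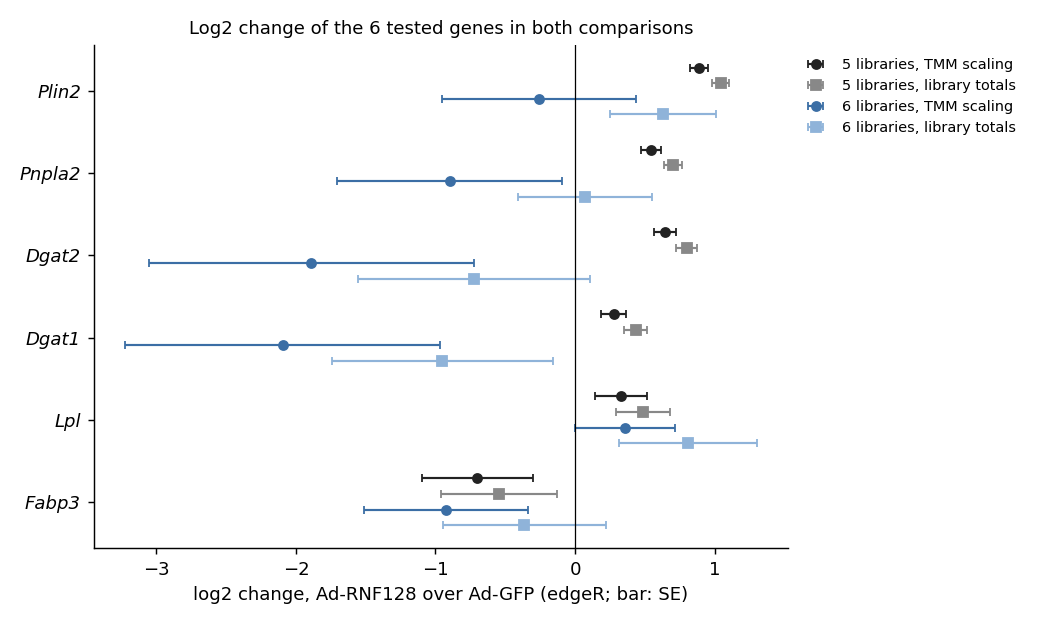
Log2 change, Ad-RNF128 over Ad-GFP (horizontal axis; bars are the SE), of the 6 tested genes without Ad-GFP replicate 1 (5 libraries) and with it (6 libraries), under TMM scaling and library totals. Plin2, Pnpla2, Dgat2 and Dgat1 lie at 0.28 to 0.89 in the TMM comparison of 5 libraries and at -2.10 to -0.26 in that of 6.

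The position of Ad-GFP replicate 1 was not the same for each gene. In CPM, it was above every Ad-RNF128 library in Pnpla2, Dgat2 and Dgat1 and below each in Plin2 and Lpl. Its TMM factor was 0.47, against 1.21 to 1.22 in Ad-RNF128, so TMM scaling raises its levels relative to theirs. Its place below them in Plin2 and Lpl therefore holds for CPM only. Among all 3812 genes that rose against replicates 2 and 3, Ad-GFP replicate 1 lay above every Ad-RNF128 library in CPM in 36.8%. On simulated data the edgeR fit of all 6 libraries recovered none of the changed genes. That simulation gave all 6 libraries the spread estimated with Ad-GFP replicate 1 and held no outlying library, so it does not measure the power in these data. A gene that did not pass over all 6 libraries is not shown to be alike in the groups. Over all 6 libraries 0 of 12863 genes passed with edgeR (0%), against 742 (5.77%) at an unadjusted p under 0.05, of which 0 were genes of this set. DESeq2 called 386 genes there (3%), and 0 of this set. With library totals edgeR called 8 genes (0.0622%), 0 of them of this set. DESeq2 gave no adjusted p for Pnpla2, Dgat1 and Dgat2.

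Lpl encodes lipoprotein lipase, which frees fatty acids from circulating triglyceride and which heart muscle cells make and secrete. It was at 10.1, 8.75 and 6.02 CPM in Ad-RNF128, and at 2.38, 5.82 and 5.95 CPM in Ad-GFP replicates 1, 2 and 3. In CPM the Ad-RNF128 libraries were all higher, but replicate 3 exceeded the nearest control only barely. The log2 change against replicates 2 and 3 was 0.33 ± 0.19 (edgeR adjusted p = 0.143), with an approximate 95% interval of -0.03 to 0.70. Single libraries moved it both ways, since without Ad-RNF128 replicate 3 the log2 change was 0.52 (edgeR adjusted p = 0.00987) and without Ad-RNF128 replicate 1 it was 0.20 (edgeR adjusted p = 0.417). With library totals and all 5 libraries it was 0.49 (edgeR adjusted p = 0.0452). Over all 6 libraries it was 0.36 ± 0.36 (edgeR adjusted p = 0.812).

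Fabp3, the fatty acid carrier that is abundant in adult heart muscle, was barely present. It had 34, 24 and 9 counts in Ad-RNF128 and 19, 31 and 36 counts in Ad-GFP replicates 1, 2 and 3, which is 1.99, 1.11 and 0.467 CPM and 1.16, 1.72 and 1.69 CPM. The ranges overlapped. Its log2 change against replicates 2 and 3 was -0.70 ± 0.40 (edgeR adjusted p = 0.147), with an approximate 95% interval of -1.48 to 0.08. Without Ad-RNF128 replicate 3 it was -0.32 (edgeR adjusted p = 0.416), and without Ad-RNF128 replicate 1 it was -1.22 (edgeR adjusted p = 0.0174), so single libraries set both the size and the call. Over all 6 libraries it was -0.92 ± 0.59 (edgeR adjusted p = 0.681).

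Fabp4, the carrier typical of fat cells, macrophages and the small vessels of the heart, had 5, 11 and 0 counts in Ad-RNF128 and 5, 8 and 9 counts in Ad-GFP replicates 1, 2 and 3. The 0 in Ad-RNF128 replicate 3 allows a level of up to 0.156 CPM at a limit of 3 counts. With counts and library totals each summed within a group, the ratio of Ad-RNF128 over Ad-GFP replicates 2 and 3 was 0.638. Its 95% counting interval was 0.302 to 1.34. A difference was not detectable at this depth.

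Ad-RNF128 replicate 3 had the lowest value of its group in Lpl, Fabp3 and Fabp4, and it was the library in which the 10 cardiomyocyte markers summed to 1.40 CPM. Plin2, Pnpla2, Dgat1 and Dgat2 did not share this, since in Pnpla2, Dgat1 and Dgat2 it was the highest of its group. Whether the cells behind the cardiac markers had a part in the Fabp3 and Lpl values was not tested. Fat cell markers were low, with 4 of 5 genes under 1 CPM in every library and Cidec and Lep at or near 0. Markers of endothelial cells summed to 40.4, 39.5 and 39.3 CPM in Ad-RNF128 and to 167, 25.3 and 26.4 CPM in Ad-GFP replicates 1, 2 and 3. Most of that was Egfl7, and Pecam1 and Kdr were under 1 CPM in every library. All 3 tested endothelial markers rose against Ad-GFP replicates 2 and 3, Egfl7 by a log2 change of 0.47, Vwf by 0.51 and Cdh5 by 1.54. Of all genes, 28.9% rose by this rule. Cdh5 was at most 0.702 CPM in any library, and 7 of the 9 endothelial genes with a row were under 1 CPM in every library. The macrophage list summed to 22.2 to 22.5 CPM in Ad-RNF128 and to 34.5, 17.1 and 16.6 CPM in Ad-GFP replicates 1, 2 and 3, with Adgre1 and Ptprc at or near 0. Of its 3 tested genes 2 rose, Csf1r by a log2 change of 2.24 and Cd68 by 1.41. These were at most 2.67 CPM (Csf1r) and 1.11 CPM (Cd68) in any library. Fibroblast markers summed to 11150, 10250 and 10770 CPM in Ad-RNF128 and to 2956, 38190 and 39800 CPM in Ad-GFP replicates 1, 2 and 3. Nearly all of that was the collagen genes Col1a1, Col1a2 and Col3a1, while Dcn was at 0.416 to 1.22 CPM and Tcf21 at or near 0. Against Ad-GFP replicates 2 and 3, 5 of the 7 tested fibroblast markers fell, as did 28% of all genes. Dcn and Pdgfra did not pass. Smooth muscle and pericyte markers summed to 4508, 3983 and 4210 CPM in Ad-RNF128 and to 2852, 4727 and 5199 CPM in Ad-GFP replicates 1, 2 and 3. Most of that was Acta2. Of 5 tested, 3 fell and 1 rose against Ad-GFP replicates 2 and 3, beside 28% and 28.9% of all genes. The part of these cell types in the differences of Plin2, Pnpla2, Dgat1 and Dgat2 was not tested.

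**Figure D3:**
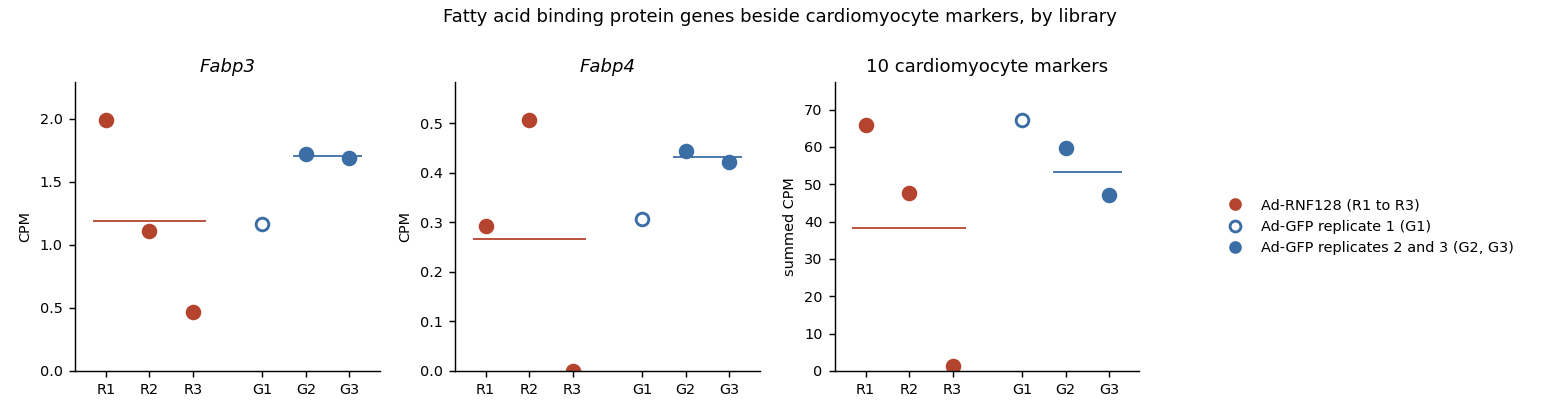
CPM of Fabp3 and Fabp4 and summed CPM of 10 cardiomyocyte markers (vertical axes, from 0) in Ad-RNF128 replicates 1 to 3 (R1 to R3) and Ad-GFP replicates 1 to 3 (G1 to G3), 1 point per library. Lines mark the group means without Ad-GFP replicate 1, which is drawn open. Ad-RNF128 replicate 3 is lowest in all 3 panels, at 0.467 CPM, 0 and 1.40 CPM.

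The wider pathway was read from 4 lists of other genes, none of them members of the set above. Of 93 listed genes, 80 had a row and 63 were tested against Ad-GFP replicates 2 and 3. Of these 21 rose, 18 fell and 24 did not pass, and the median log2 change was 0.04, against 0.01 for all genes. The share of calls among all genes was 56.9%, with 28.9% higher and 28% lower. No list gene passed over all 6 libraries, and the log2 changes below are without Ad-GFP replicate 1, whose level is given beside each.

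Among 14 genes of uptake, activation and lipolysis in the circulation, 4 rose and 6 fell, beside 28.9% and 28% of all genes. The median was -0.06, and 0.10 with library totals. Angptl4, a secreted inhibitor of lipoprotein lipase and a target of PPAR factors, rose by a log2 change of 2.06 ± 0.20 (edgeR adjusted p = 6.66e-07). It was at 6.67, 8.43 and 7.17 CPM in Ad-RNF128, and at 30.5, 1.50 and 1.69 CPM in Ad-GFP replicates 1, 2 and 3. Acsl3, which activates fatty acids at growing droplets, fell by 1.38 on the log2 scale, and was at 29.2 to 31.8 CPM in Ad-RNF128 and 0.673, 72.5 and 68.7 CPM in Ad-GFP replicates 1, 2 and 3. Lrp1, a lipoprotein receptor gene, had a log2 change of -0.72 ± 0.07, and was at 892 to 972 CPM in Ad-RNF128, above the 212 CPM of Ad-GFP replicate 1. Gpihbp1, the capillary anchor of lipoprotein lipase, was at 0 to 0.122 CPM in the 6 libraries.

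Among 20 genes of droplet coat, formation and lipolysis, 6 rose and 5 fell, beside 28.9% and 28% of all genes. The median was 0.03. Hilpda, which encodes an inhibitor of ATGL, rose by 0.97 ± 0.09 and was at 30.0 to 31.2 CPM in Ad-RNF128 and 78.0, 13.2 and 14.7 CPM in Ad-GFP replicates 1, 2 and 3. Aup1, a droplet surface protein gene, rose by 0.67 ± 0.07, but Ad-RNF128 at 109 to 119.8 CPM lay below the 295 CPM of Ad-GFP replicate 1, and the log2 change over all 6 libraries was -1.41. Mgll, which completes triglyceride breakdown, had a log2 change of -1.10 ± 0.09, at 23.5 to 25.7 CPM in Ad-RNF128 and 12.7, 44.6 and 51.2 CPM in Ad-GFP replicates 1, 2 and 3. Abhd5, the activator of ATGL, was picked out after its values were seen. It rose by 0.37 ± 0.07 (edgeR adjusted p = 0.000412), at 51.3 to 53.7 CPM in Ad-RNF128 and 3.73, 37.7 and 35.3 CPM in Ad-GFP replicates 1, 2 and 3. The ATGL inhibitor gene G0s2 was at most 0.0938 CPM in all 6 libraries. Against Ad-GFP replicates 2 and 3, transcripts of the activator and of an inhibitor of ATGL thus both rose beside Pnpla2. That of the later lipase Mgll fell, and Lipe, another lipase gene of the list, did not pass (-0.087, edgeR adjusted p = 0.84). Over all 6 libraries the log2 changes were 0.78 for Abhd5, -1.35 for Hilpda, -0.90 for Pnpla2 and -0.91 for Mgll. None of these passed there.

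Among 16 genes of glycerolipid and sterol ester synthesis, 5 rose and 4 fell, beside 28.9% and 28% of all genes. The median was 0.06. Gpat3, which starts glycerolipid synthesis, rose by 0.70 ± 0.12. It was at 14.8 to 17.7 CPM in Ad-RNF128 and 8.68, 8.53 and 8.95 CPM in Ad-GFP replicates 1, 2 and 3. Soat1, which esterifies cholesterol for droplets, rose by 0.45 ± 0.07. It was at 392 to 440 CPM in Ad-RNF128 and 23.7, 271 and 280 CPM in Ad-GFP replicates 1, 2 and 3. Lpin2, which makes the diacylglycerol that DGAT enzymes use, had a log2 change of -0.71 ± 0.09, and was at 17.9 to 20.4 CPM in Ad-RNF128, above the 0.673 CPM of Ad-GFP replicate 1. Soat2, outside the naming rule, had 91 counts in Ad-RNF128 and 3 in Ad-GFP replicates 2 and 3, a ratio of 20.6 with a counting interval of 6.82 to 102. Ad-RNF128 held it at 1.43 to 1.87 CPM, below the 3.42 CPM of Ad-GFP replicate 1.

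Among 13 transcription factors and coregulators, 6 rose and 3 fell, beside 28.9% and 28% of all genes. The median was 0.03. Srebf2, the regulator of sterol synthesis, had a log2 change of -1.15 ± 0.07, at 140, 139 and 148 CPM in Ad-RNF128 and 49.8, 278 and 290 CPM in Ad-GFP replicates 1, 2 and 3. Klf15, which promotes lipid use in heart muscle, rose by 1.33 ± 0.15. It was at 11.6 to 14.0 CPM in Ad-RNF128 and 6.299, 4.76 and 4.22 CPM in Ad-GFP replicates 1, 2 and 3. Hif1a, the hypoxia factor, rose by 0.25 ± 0.06. It was at 147 to 153 CPM in Ad-RNF128 and 1.77, 118 and 108 CPM in Ad-GFP replicates 1, 2 and 3. The PPAR factors, which act on many genes named here, were picked out after their values were seen. Ppara rose by 1.36 ± 0.28 (edgeR adjusted p = 0.000713), at 2.63, 3.69 and 2.75 CPM in Ad-RNF128 and 0.489, 0.886 and 1.22 CPM in Ad-GFP replicates 1, 2 and 3. Ppard had a log2 change of -0.25 ± 0.07 (edgeR adjusted p = 0.00741), at 49.8 to 54.0 CPM in Ad-RNF128 and 35.1, 54.7 and 56.5 CPM in Ad-GFP replicates 1, 2 and 3. That call ended with library totals (-0.098, edgeR adjusted p = 0.229), without Ad-GFP replicate 3 (-0.20, edgeR adjusted p = 0.0645) and without Ad-RNF128 replicate 2 (-0.20, edgeR adjusted p = 0.0525). Pparg did not exceed 0.0519 CPM in any library.

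**Figure D4:**
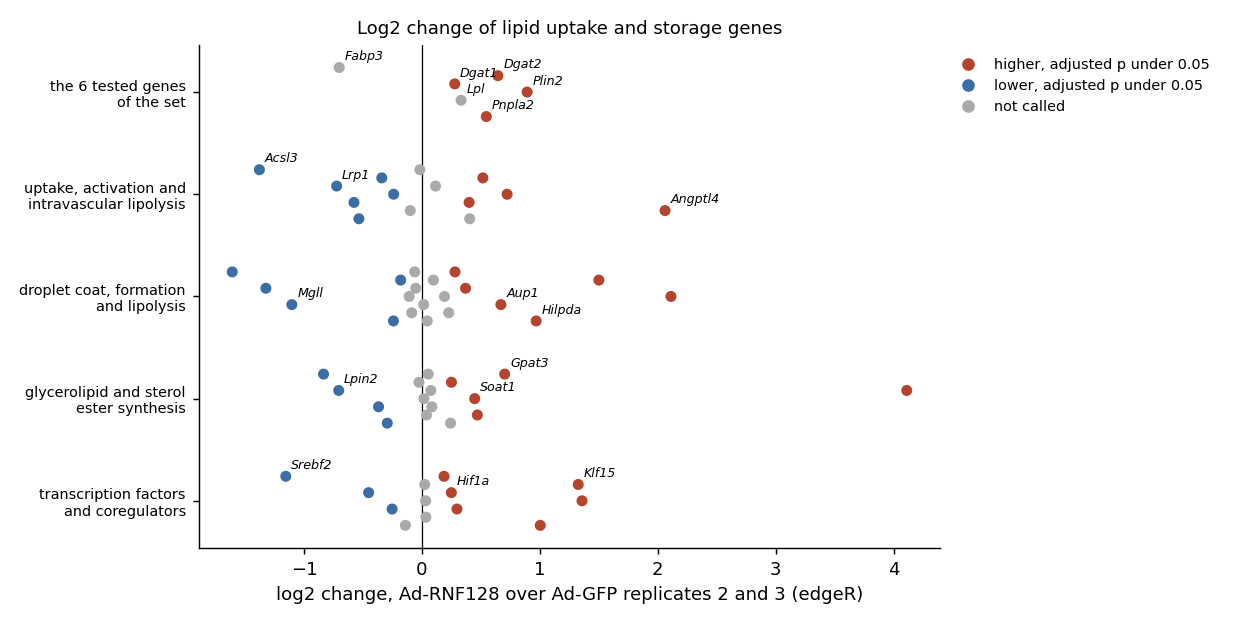
Log2 change, Ad-RNF128 over Ad-GFP replicates 2 and 3 (horizontal axis), of the 6 tested genes of the set and of the 63 tested genes of the 4 lists, 1 point per gene, coloured by the edgeR call. The 4 genes that rose in the set lie at 0.28 to 0.89, inside the spread of the lists, where Angptl4 lies at 2.06, Acsl3 at -1.38 and the unlabelled point farthest right is Soat2.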

How the data were processed

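Each deposited table pairs Ensembl IDs and names with reads per gene. The submitters' processing notes name HISAT2, HTSeq 0.13.5 and mRatBN7.2. No source used here gives a strand setting, and reads of antisense or overlapping genes cannot be told apart. The deposited values are raw counts. In the deposited column of Ad-GFP replicate 1 a single value is not whole, so it was handled like estimated counts and rounded, and why it is not whole is not known. Genes were matched by name, and 7 of 10 had a row. CPM is the count times 1000000 over the library total. Tests used edgeR 4.0.16 in R 4.3.3 (filterByExpr, TMM, quasi-likelihood F-test), adjusted over all genes by Benjamini-Hochberg at 0.05. The SE was derived from the log2 change and its F statistic. Counting intervals and the floor of 3 counts cover counting error only. The members, the lists and the comparison without Ad-GFP replicate 1 were chosen with earlier results of these data known. Named list genes are the 3 with the smallest p in each list at a mean of at least 5 CPM. Alternatives were other scalings, DESeq2 1.42.0, other filters, a replicate block and leaving out each library. Tested on simulated data, the fit of 5 libraries recovered most changed genes, with a somewhat higher share of false calls than its threshold sets, and the fit of 6 libraries recovered none. All simulated libraries shared the spread of the fit, so an outlying library was not simulated. RefSeq windows (GRCr8) were found for 5 of the 10 genes.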

Additional observations from a re-analysis of the deposited data

How the results depend on the processing

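Against Ad-GFP replicates 2 and 3, 3 to 5 genes of the set passed under every alternative run, and Plin2, Pnpla2 and Dgat2 were among the genes that rose in each. No log2 change of the set, of the 12 list genes named by rule, of Rnf157, or of Abhd5, Ppara, Ppard and Soat2 changed sign in this comparison under the alternatives run, which for the last 4 genes were added after seeing the data. Over all 6 libraries 0 genes of the set passed under each alternative other than leaving out Ad-GFP replicate 1, so that the range over single libraries left out was 0 to 4. Over all genes that range was 0 to 7501, with 8 genes called with library totals only and 386 with DESeq2. Signs over all 6 libraries depended on scaling. Plin2 had a log2 change of 0.63 with library totals and 0.18 with the replicate block, and Pnpla2 0.069 with library totals. Leaving out single libraries gave -0.60 to 0.89 for Plin2, -1.28 to 0.55 for Pnpla2, -2.57 to 0.28 for Dgat1 and -2.37 to 0.64 for Dgat2, each highest without Ad-GFP replicate 1. The causes were not tested. Whether replicate numbers pair the libraries could not be told. Deviations from the group means of same-numbered libraries correlated at -0.199, 0.0275 and -0.168. The Ad-GFP mean included the outlying replicate 1, so replicates 2 and 3 deviate against it. Ad-RNF128 replicate 1 thus gave -0.199, 0.206 and 0.189 with Ad-GFP replicates 1, 2 and 3. With the replicate block, 5 genes of the set passed against Ad-GFP replicates 2 and 3 (4 higher, and Fabp3 lower at -1.28), and 7798 of all genes. In that fit Ad-RNF128 replicate 1 had no control in its block, so it carried no weight in the log2 change. The Fabp3 call is therefore not separate from that without Ad-RNF128 replicate 1, where the log2 change was -1.22. Depth limits Fabp3 and Fabp4, which had at most 36 and 11 counts in a library.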
